A study of Mus musculus with 12 samples.

Results

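Vascular calcification turns on a balance between inhibitors that keep mineral out of the vessel wall and a bone-like or cartilage-like programme that vascular cells can take up, and 10 genes of that balance were followed here in mouse veins. They were taken by name and were Mgp, Enpp1 and Tnfrsf11b (inhibitors), Alpl and Slc20a1 (phosphate handling), Runx2, Sox9 and Msx2 (transcription factors) and Acan and Comp (cartilage matrix). All 10 of them were present among the 43346 genes listed and all 10 were among the 18965 genes with enough counts to be tested. The data were RNA-seq counts from 12 vein libraries collected on day 7 after surgery. The AVF-CKD group (n = 6) had AVF-CKD surgery and gave the venous limb of the AVF, read here as an arteriovenous fistula with chronic kidney disease. The sham group (n = 6) had sham surgery and gave the jugular vein. Surgery, vessel and any kidney disease therefore differed together and cannot be told apart. The sources used here do not give strain, sex, age or the way kidney disease was made. They do not say either whether each library came from its own mouse, so a p-value here reflects how far these samples spread, which may be technical.

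As background, mineral forms where phosphate is plentiful and pyrophosphate, its natural inhibitor, is scarce. ENPP1 makes pyrophosphate outside the cell, the alkaline phosphatase encoded by Alpl breaks it down, and the transporter encoded by Slc20a1 carries phosphate into smooth muscle cells. Matrix Gla protein, the product of Mgp, blocks mineral growth in the wall, and mice without it calcify their arteries. RUNX2, SOX9 and MSX2 drive bone and cartilage genes, and aggrecan (Acan) and cartilage oligomeric matrix protein (Comp) are parts of cartilage that vessel walls and tendons also make.

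None of the 10 genes passed an adjusted p of 0.05 between the fistula and the sham veins. The edgeR quasi-likelihood test called 0 of 10, where it called 0 of all 18965 genes (0%), and DESeq2 (0.538% of all genes called) and limma voom (0%) also called 0 of 10. At an unadjusted p below 0.05 there was 1 member, Alpl, which was lower, against 9.34% of all genes (5.26% higher and 4.08% lower). Negative log2 fold changes (AVF-CKD over sham) were found for 7 members and positive ones for 3, with a median of -0.10, against a median of -0.0025 over all genes, of which 50.9% were negative and 49.1% positive. Single libraries moved the members' median widely: it was -0.01 without sham 5, -0.02 without AVF-CKD 2, -0.05 without AVF-CKD 1, -0.16 without sham 2, -0.15 without sham 4, -0.18 without AVF-CKD 5 and -0.22 without AVF-CKD 6. In none of the 10 did the groups separate, as they did for 0.638% of all genes. For 8 of the 10 the 95% interval lay within 2-fold in either direction, against 86.7% of all genes. It lay within 1.5-fold for only 3 of the 10. On simulated counts with the same library sizes and spread (18827 genes), edgeR recovered 73.8% of the 65 genes given a 2-fold change. It recovered 34.8% of the 66 genes given a 1.5-fold change. Recovery at the spread of each of the 10 members was not tested.

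**Figure D1:**
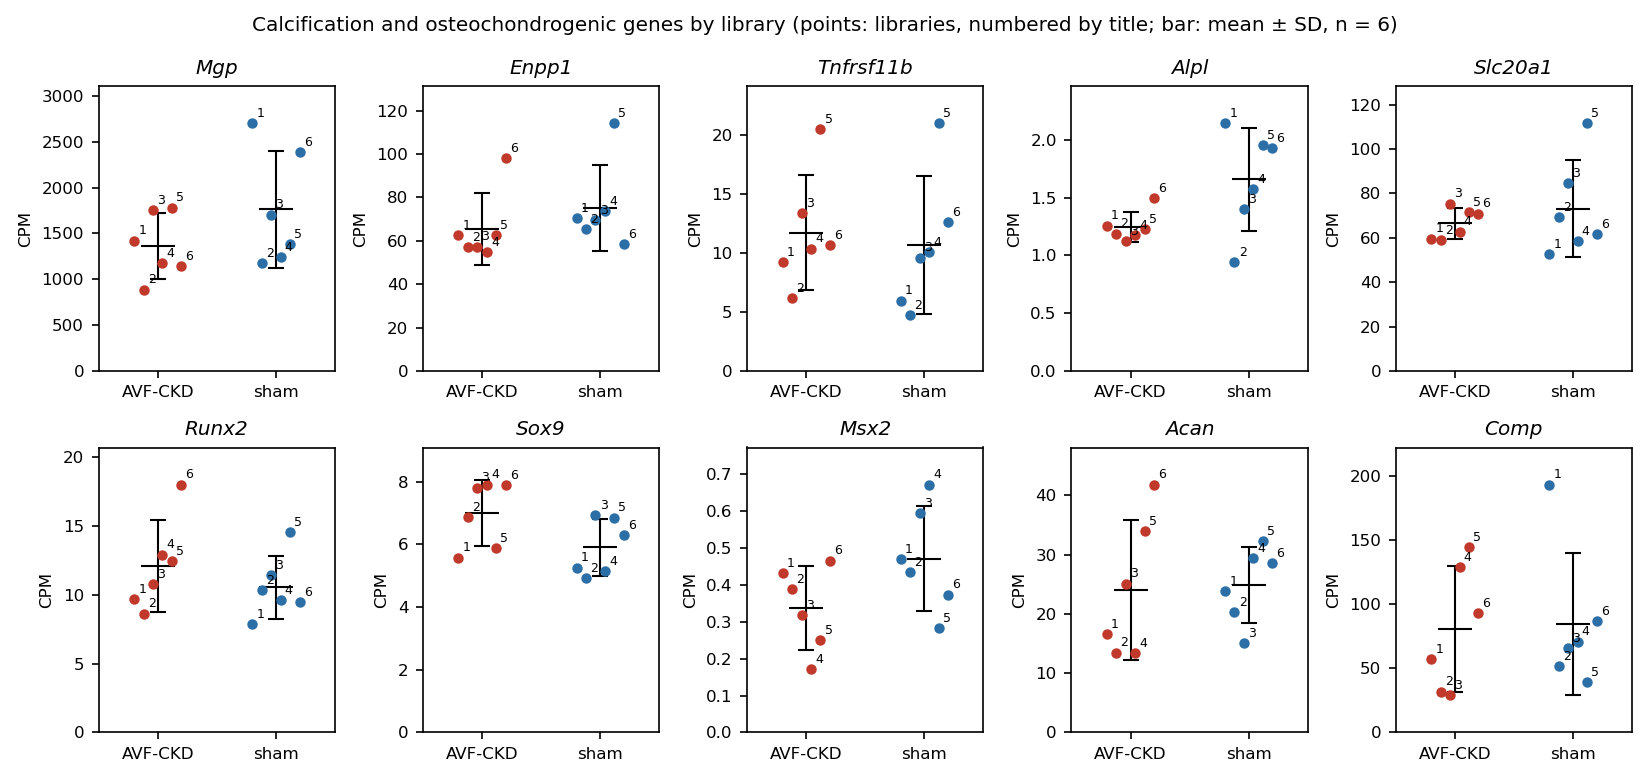
CPM (counts divided by the scaled library size in the usual CPM unit) of each of the 10 genes in the 12 libraries, AVF-CKD left and sham right. Each point is a library with its title number and the bars give mean ± SD (n = 6). The points of the groups overlap in every panel, and sham 1 stands high for Comp at 193 CPM.

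**Figure D2:**
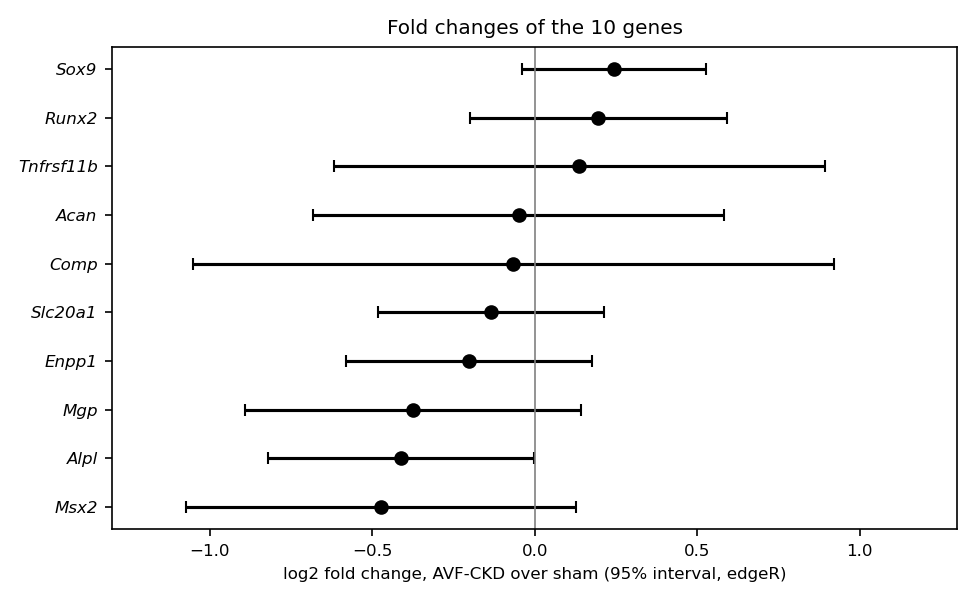
Log2 fold change of AVF-CKD over sham for the 10 genes, with 95% intervals from the edgeR fit. The values run from -0.47 for Msx2 to 0.24 for Sox9, and 9 of the intervals include 0.

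RNA of endothelial and smooth muscle genes was present in both groups, but whether it came from the vein wall was not tested. Pecam1, an endothelial adhesion gene, averaged 380 CPM in AVF-CKD and 419 CPM in sham, and the smooth muscle actin gene Acta2 734 CPM in AVF-CKD and 954 CPM in sham. Markers of skeletal muscle and fat were present as well, at levels that varied widely. The summed level of 10 skeletal muscle markers ranged from 866 to 12570 CPM in AVF-CKD and from 502 to 13030 CPM in sham, and that of 9 fat markers from 774 to 1589 CPM in AVF-CKD and from 980 to 4355 CPM in sham, with sham 6 highest. All 9 fat markers had a negative log2 fold change of AVF-CKD over sham (median -1.18). Of these, 5 had an unadjusted edgeR p below 0.05, against 9.34% of all genes (4.08% lower). Of the 9, edgeR called 0 and DESeq2 called 2 lower, against 0% and 0.538% of all genes. Without sham 6 the median was -0.42, with 7 negative and 2 positive. Their summed level differed by -0.75 in log2 (exact permutation p = 0.0476, adjusted p = 0.357 over the marker lists). Smooth muscle markers were negative for 8 of 10 (median -0.26), 3 with an unadjusted edgeR p below 0.05. Their sum differed by -0.29 (exact permutation p = 0.0649, adjusted p = 0.357). All 10 endothelial markers were negative (median -0.20), 3 at such a p. Of the macrophage markers 6 of 8 were positive (median 0.20), 1 at such a p. In these lists edgeR called 0 genes and DESeq2 called 1, a macrophage marker, higher. The part of RNA from fat or these other cells in the values of the 10 genes was not tested. In tissue RNA, fewer cells of a type and less RNA per cell cannot be told apart. Library totals lay between 38653830 and 60142016 counts.

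Levels can be set side by side only per length, for which the authors' deposited RPKM values (reads scaled by gene length and library size) were used. Mgp stood far above the rest, at 1944 RPKM ± 500 in AVF-CKD and 2537 RPKM ± 936 in sham (SD, n = 6 each), and ranked 12 of all genes by mean RPKM. Its RPKM rests on a deposited length of 598 bases. GENCODE M21 gives its exons 1187 bases, on which the mean over all libraries would be 1129 instead of 2240 RPKM. Its rank would then be 28, with all other genes left at their deposited lengths. Comp followed at 28.3 RPKM in AVF-CKD and 29.9 RPKM in sham. Below it came Slc20a1 (mean RPKM 10.2 in AVF-CKD and 11.3 in sham), Enpp1 (5.46 in AVF-CKD and 6.31 in sham) and Tnfrsf11b (3.54 in AVF-CKD and 3.27 in sham). Acan (2.78 in AVF-CKD and 2.92 in sham), Sox9 (1.45 in AVF-CKD and 1.23 in sham) and Runx2 (1.17 in AVF-CKD and 1.03 in sham) came next, and Alpl (0.264 in AVF-CKD and 0.354 in sham) and Msx2 (0.0883 in AVF-CKD and 0.123 in sham) last. This order of means was the same in both groups. The steps from Mgp to Comp, from Runx2 to Alpl and from Alpl to Msx2 were without overlap between libraries in either group. Comp and Slc20a1, Enpp1 and Tnfrsf11b, Tnfrsf11b and Acan, and Sox9 and Runx2 overlapped in both. Slc20a1 and Enpp1 were apart in AVF-CKD and overlapped in sham, and Acan and Sox9 overlapped in AVF-CKD and were apart in sham.

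**Figure D3:**
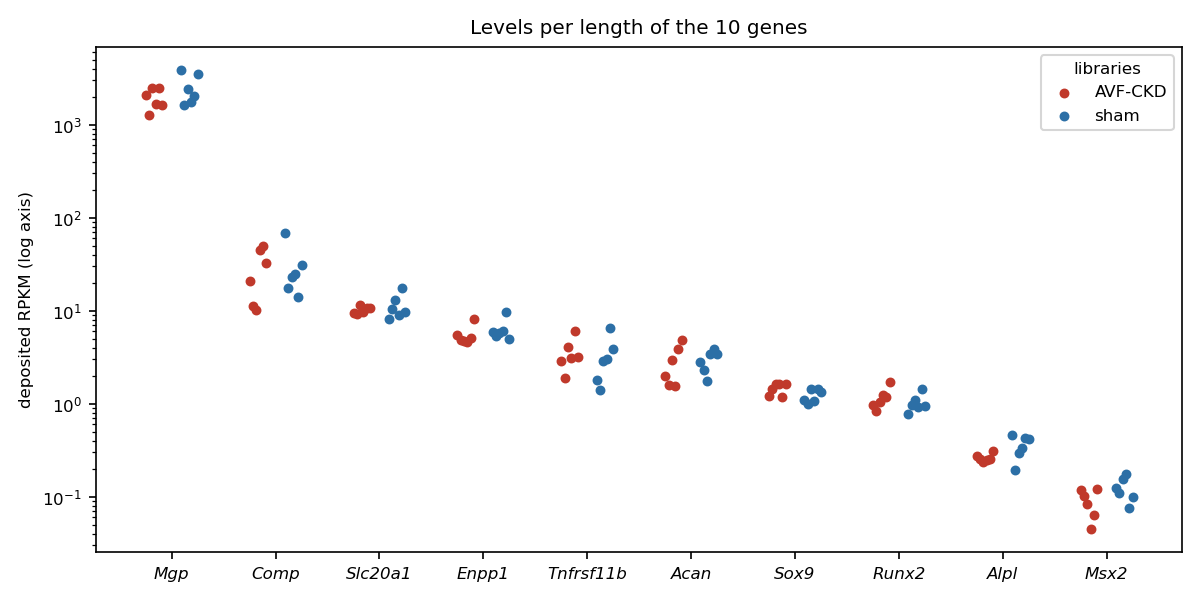
Deposited RPKM of the 10 genes on a log axis, ordered by mean level, with AVF-CKD libraries left of sham libraries. Levels span from 3883 RPKM for Mgp in sham 1 to 0.0445 RPKM for Msx2 in AVF-CKD 4.

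Among the inhibitors, Mgp had a lower mean in the fistula vein with wide overlap. It stood at 1422, 888, 1756, 1173, 1782 and 1144 CPM in AVF-CKD 1 to 6, against 2704, 1177, 1706, 1240, 1382 and 2386 CPM in sham 1 to 6. Sham 1 and sham 6 were the 2 highest libraries, and 3 fistula libraries lay below the lowest sham library. The gene (ENSMUSG00000030218) lies on chromosome 6 of GRCm38, from 136872436 to 136875805. Its log2 ratio of AVF-CKD over sham was -0.38, with an SE of 0.24 (edgeR adjusted p = 0.659), or 0.771-fold with a 95% interval of 0.539 to 1.10. Without sham 1 the log2 fold change of Mgp was -0.21. Below, ± after a log2 fold change is its SE and ± after a mean is the SD of 6 libraries.

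Enpp1, on chromosome 10 (24637914 to 24712159), was even across most libraries. It stood at 62.5, 57.1, 57.3, 54.9, 62.6 and 98.2 CPM in AVF-CKD 1 to 6, against 70.3, 65.5, 69.4, 73.7, 114 and 58.6 CPM in sham 1 to 6. AVF-CKD 6 and sham 5 stood apart at the top of their groups, and 5 of the 6 fistula libraries lay below the sham median of 69.8 CPM. For Enpp1 the fitted log2 fold change was -0.20 ± 0.18 (edgeR adjusted p = 0.757), or -0.05 without sham 5 and -0.35 without AVF-CKD 6.

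Tnfrsf11b (chromosome 15, 54250619 to 54278484) encodes osteoprotegerin, the decoy receptor that holds back the bone-resorbing ligand RANKL. It ranged from 6.15 to 20.5 CPM in AVF-CKD (median 10.5) and from 4.70 to 21.0 CPM in sham (median 9.84). AVF-CKD 5 and sham 5 were the highest of each group at nearly the same level. A log2 fold change of 0.14 ± 0.35 was fitted (edgeR adjusted p = 0.932), which was -0.10 without AVF-CKD 5 and -0.02 without sham 2. Its ligand gene Tnfsf11, named after its values were seen, averaged 2.84 CPM ± 1.54 in AVF-CKD and 1.71 CPM ± 0.989 in sham (edgeR adjusted p = 0.608), with overlapping groups.

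Of the phosphate genes, Alpl came closest to a difference among the 10. Its counts were low, 46 to 128 per library. It stood at 1.26, 1.19, 1.12, 1.18, 1.23 and 1.495 CPM in AVF-CKD 1 to 6, against 2.14, 0.941, 1.40, 1.58, 1.95 and 1.93 CPM in sham 1 to 6. All 6 fistula libraries lay below the sham median of 1.75 CPM, but sham 2 was below all of them. The log2 fold change of Alpl (chromosome 4, 137741733 to 137796384) was -0.41 ± 0.19, with an unadjusted p of 0.0487 and an edgeR adjusted p of 0.531. Over the alternatives run its adjusted p went from 0.368 to 0.776. Over the 12 libraries the log2 CPM of Alpl had a Pearson r of 0.78 with the summed chondrocyte markers (permutation p = 0.00283) and a Spearman rho of 0.79 (permutation p = 0.00318), with adjusted values of 0.0784 and 0.0875 and r = 0.79 without AVF-CKD 2 and 4. With the summed smooth muscle markers the Pearson r of Alpl was 0.65 (permutation p = 0.0186) and the Spearman rho 0.77 (permutation p = 0.00499). The adjusted values were 0.238 and 0.110, and r was 0.89 without AVF-CKD 1 and 4. Alpl had a Pearson r of -0.75 with the summed macrophage markers (permutation p = 0.00615) and a Spearman rho of -0.74 (permutation p = 0.00762). Over 110 pairs of a gene and a marker list the adjusted values for macrophages were 0.135 and 0.120. None of these relations of Alpl with chondrocyte, smooth muscle or macrophage markers was called. Leaving out sham 1 and sham 6, the farthest from the median on macrophage markers, gave r = -0.56 for Alpl. Pearson r with these markers was also negative for Acan (-0.67), Comp (-0.65), Mgp (-0.595), Tnfrsf11b (-0.42), Enpp1 (-0.29) and Runx2 (-0.10). It was positive for Sox9 (0.11), Msx2 (0.10) and Slc20a1 (0.06). The lowest adjusted permutation p of these r was 0.238, for Acan, so none was called. All 8 macrophage markers were tested and none was at 0. Their sum ranged from 6509 to 11940 CPM in AVF-CKD and from 5974 to 12100 CPM in sham, and their part in the Alpl values was not tested. The part of chondrocyte or smooth muscle RNA was not tested either.

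Slc20a1 (chromosome 2, 129198764 to 129211616) was the steadiest member in the fistula vein. It stood at 59.6, 59.1, 75.5, 62.8, 71.8 and 71.0 CPM in AVF-CKD 1 to 6, against 52.8, 69.3, 84.6, 58.6, 112 and 61.6 CPM in sham 1 to 6. The sham range enclosed the fistula range on both sides, with a coefficient of variation of 10.5% in AVF-CKD and 29.9% in sham (median over all tested genes 16.8% in AVF-CKD and 15.96% in sham). For Slc20a1 the log2 fold change was -0.13 ± 0.16 (edgeR adjusted p = 0.835) and 0.03 without sham 5. Other gene models overlap 13.1% of its exonic bases, so a small part of its counts is uncertain.

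The 3 transcription factor genes were all at low levels and did not share a direction. Sox9, the driver of cartilage formation, stood at 5.58, 6.88, 7.81, 7.90, 5.87 and 7.90 CPM in AVF-CKD 1 to 6, against 5.26, 4.92, 6.94, 5.14, 6.86 and 6.29 CPM in sham 1 to 6. AVF-CKD 2 to 6 were above the sham median of 5.78 CPM and 3 of these above every sham library, while AVF-CKD 1 lay below that median. Fitted on all libraries, the log2 fold change of Sox9 (chromosome 11, 112782224 to 112787760) was 0.24 ± 0.13 (unadjusted p = 0.0851, edgeR adjusted p = 0.584) and stayed between 0.20 and 0.30 when any single library was left out.

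Runx2 (chromosome 17, 44495987 to 44814797), the master regulator of bone-forming cells, stood at 9.70, 8.63, 10.8, 12.9, 12.5 and 18.0 CPM in AVF-CKD 1 to 6, against 7.89, 10.4, 11.4, 9.64, 14.6 and 9.47 CPM in sham 1 to 6. AVF-CKD 6 was the only library above the sham maximum. For Runx2 the fitted log2 fold change was 0.20 ± 0.18 (edgeR adjusted p = 0.777), or 0.05 without AVF-CKD 6. The model Runx2os1 overlaps 5.87% of the Runx2 exonic bases.

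RUNX proteins bind the letters ACCACA, which the opposite strand spells as TGTGGT, and Runx2, Slc20a1 and Enpp1 hold this motif in the promoter windows below, which are shown because RUNX2, itself a member, acts through this motif. Each window has 250 bases before and 50 after the RefSeq start (GRCm38.p6), 5′ to 3′ on the gene's strand, with the motif on either strand in capitals. Runx2 is at chr17:44814578-44814877 (minus strand), Slc20a1 at chr2:129198523-129198822 (plus strand) and Enpp1 at chr10:24712110-24712409 (minus strand).
Runx2: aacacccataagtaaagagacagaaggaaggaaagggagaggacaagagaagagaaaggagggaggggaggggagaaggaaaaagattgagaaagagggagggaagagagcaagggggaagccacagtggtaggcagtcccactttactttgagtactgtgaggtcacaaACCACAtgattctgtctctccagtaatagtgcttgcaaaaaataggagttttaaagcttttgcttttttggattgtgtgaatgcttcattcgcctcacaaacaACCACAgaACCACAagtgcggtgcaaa
Slc20a1: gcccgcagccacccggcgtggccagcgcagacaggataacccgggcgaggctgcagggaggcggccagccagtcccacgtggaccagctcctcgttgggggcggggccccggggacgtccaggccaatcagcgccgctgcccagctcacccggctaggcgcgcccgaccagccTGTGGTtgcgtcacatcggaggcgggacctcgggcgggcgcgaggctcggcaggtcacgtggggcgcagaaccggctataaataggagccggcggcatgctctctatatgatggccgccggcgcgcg
Enpp1: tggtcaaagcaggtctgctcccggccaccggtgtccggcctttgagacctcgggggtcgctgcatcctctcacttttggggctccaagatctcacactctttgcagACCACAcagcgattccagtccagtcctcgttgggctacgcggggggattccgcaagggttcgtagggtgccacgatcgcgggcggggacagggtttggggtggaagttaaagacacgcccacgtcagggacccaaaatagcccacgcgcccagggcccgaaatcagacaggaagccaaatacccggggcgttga
The Runx2 window has 3 copies, 1 of them 80 bases before the start and 2 after it. The copy of Slc20a1 is on the opposite strand, 77 bases before the start, and that of Enpp1 144 bases before it. Entries were at hand for 6 of the 10 genes (8 windows, of which 3 hold the motif). Over 32851 windows of 300 bases, 16.8% hold the motif at least once and 0.183% hold it 3 or more times. A match in these letters is a description and shows no binding.

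Msx2 (chromosome 13, 53466884 to 53473074), a homeobox gene of bone development, had only 8 to 31 counts per library. It ranged from 0.171 to 0.466 CPM in AVF-CKD (median 0.353) and from 0.282 to 0.672 CPM in sham (median 0.452). The 8 counts of AVF-CKD 4 have an exact Poisson 95% interval of 3.45 to 15.8 and the 31 counts of sham 3 one of 21.1 to 44.0, for counting error alone. AVF-CKD 4 and 5 lay below every sham library and the rest overlapped. For Msx2 the log2 fold change was -0.47 ± 0.28 (edgeR adjusted p = 0.628).

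The 2 cartilage matrix genes varied more between libraries of a group than between groups. Comp stood at 57.0, 31.8, 29.2, 129, 144 and 93.1 CPM in AVF-CKD 1 to 6, against 193, 51.7, 65.4, 70.7, 39.2 and 86.9 CPM in sham 1 to 6. Sham 1 was the highest of all, and within the fistula group libraries 4, 5 and 6 were above libraries 1, 2 and 3. The largest level exceeded the smallest 4.95-fold in AVF-CKD and 4.92-fold in sham, and the coefficient of variation was 61.0% in AVF-CKD and 65.8% in sham. The log2 fold change of Comp (chromosome 8, 70373548 to 70382065) was -0.07 ± 0.46 (edgeR adjusted p = 0.978), 0.36 without sham 1, and between 0.01 and 0.10 without AVF-CKD 1, 2 or 3.

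Acan (chromosome 7, 79053483 to 79115099) stood at 16.5, 13.5, 25.1, 13.4, 34.0 and 41.8 CPM in AVF-CKD 1 to 6, against 23.9, 20.3, 15.1, 29.4, 32.3 and 28.6 CPM in sham 1 to 6. The fistula values reached beyond the sham values at both ends, with 2 libraries above and 2 below them all. Its fitted log2 fold change was -0.05 ± 0.29 (edgeR adjusted p = 0.974), which was positive, at most 0.07, without sham 4 or 5 or AVF-CKD 1, 2 or 4.

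Comp was the member that moved most closely with markers of other cells. Its log2 CPM had a Pearson r of 0.87 with the summed fibroblast markers over 12 libraries (permutation p = 0.00034, adjusted p = 0.03465 over 110 pairs) and a Spearman rho of 0.84 (permutation p = 0.00115, adjusted p = 0.0633). With the summed tendon and ligament markers the Pearson r was 0.84 (permutation p = 0.00063, adjusted p = 0.03465) and the Spearman rho 0.85 (permutation p = 0.00073, adjusted p = 0.0633). Without the 2 libraries farthest from the median on each marker sum, r was 0.86 for fibroblasts and 0.75 for tendon and ligament. These were the 2 pairs of 110 with an adjusted Pearson p below 0.05, and neither passed on ranks. All 8 fibroblast markers were tested and none was at 0. The sum ranged from 28410 to 48220 CPM in AVF-CKD and from 30610 to 47960 CPM in sham, with Col3a1 the most abundant. All 7 tendon and ligament markers were tested and none was at 0, and their sum, led by Tnxb, ranged from 425 to 1114 CPM in AVF-CKD and from 622 to 908 CPM in sham. The tendon gene Tnmd, named after its values were seen, averaged 9.80 CPM ± 3.86 in AVF-CKD and 18.6 CPM ± 3.08 in sham (log2 fold change -0.92, edgeR adjusted p = 0.390, limma voom adjusted p = 0.266). DESeq2 called Tnmd lower (adjusted p = 0.0352). All values share the library and its scaling, and the part of these cells in the Comp values was not tested.

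**Figure D4:**
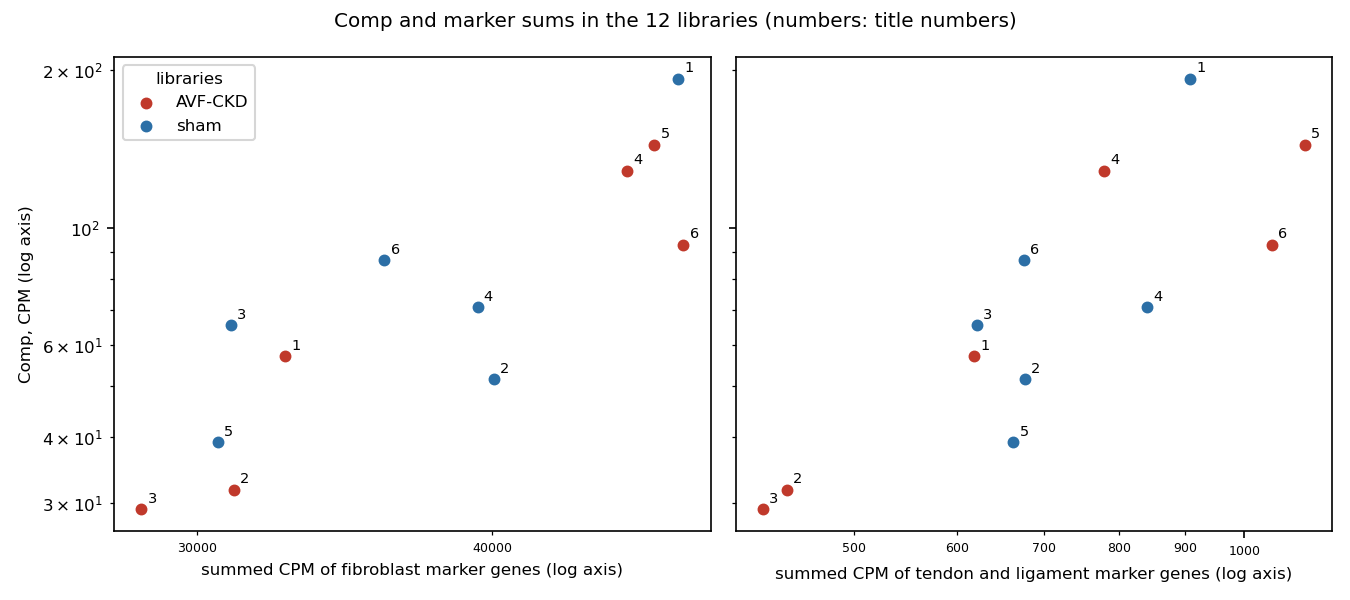
Comp against the summed CPM of 8 fibroblast markers (left) and of 7 tendon and ligament markers (right), all on log axes, with a point per library and its title number. Libraries of both groups lie along a rising line, from AVF-CKD 3 at 29.2 CPM of Comp to sham 1 at 193 CPM.

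Of the marker sums, Mgp had its highest correlation with the endothelial one, with a Pearson r of 0.78 (permutation p = 0.00285) and a Spearman rho of 0.81 (permutation p = 0.00234). The adjusted values were 0.0784 and 0.0858, so the pair was not called, and r was 0.68 without the 2 libraries farthest from the median. All 10 endothelial markers were tested, none at 0, and their sum ranged from 1141 to 1810 CPM in AVF-CKD and from 1386 to 1887 CPM in sham (difference of means in log2 -0.21, two-sided exact permutation p = 0.156, adjusted p = 0.571 over 11 lists). The part of endothelial RNA in the Mgp values was not tested.

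Among the members, 0 of 45 pairs passed a permutation test of Pearson's r over the 12 libraries, adjusted over the pairs. With so few libraries this does not show that the ties were weak. The pair with the highest r was Slc20a1 and Runx2 (Pearson r = 0.64, permutation p = 0.0269, adjusted p = 0.337). Its Spearman rho was 0.78 (permutation p = 0.00372, adjusted p = 0.167), and r was 0.68 without sham 3 and sham 5. Within sham alone r of this pair was 0.98 and within AVF-CKD alone 0.54, without a test. Enpp1 and Runx2 had r = 0.60 (permutation p = 0.0428, adjusted p = 0.337) and rho = 0.27 (permutation p = 0.405, adjusted p = 0.702). Without AVF-CKD 6 and sham 5 their r was -0.30, so the relation of Enpp1 and Runx2 rested on those 2 libraries.

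The wider programme around these genes held no called gene by edgeR. Of 101 genes in 7 lists of calcification and bone or cartilage formation, 86 were tested and 0 were called. At an unadjusted p below 0.05 there were 9 (10.5%, against 9.34% of all genes), 6 higher and 3 lower in AVF-CKD, and DESeq2 called Prg4. Positive fold changes were found for 30 and negative for 56, with a median of -0.08, against 49.1% positive and a median of -0.0025 over all genes. The lists share members, so they are not separate observations.

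**Figure D5:**
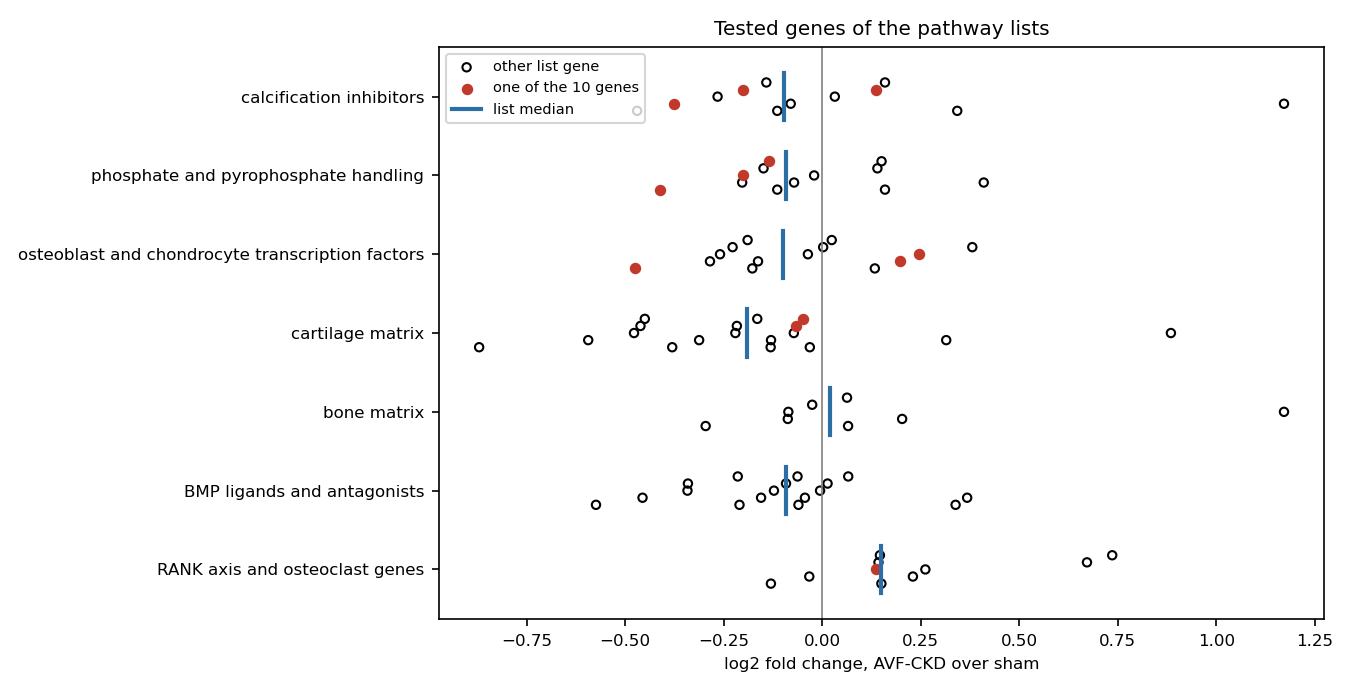
Log2 fold changes of AVF-CKD over sham for the tested genes of 7 lists, filled points for the 10 genes and open points for the others, with a bar at each list's median. The medians lie between -0.19 and 0.15, and Spp1 stands alone at 1.17 on the right.

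In the inhibitor list 5 of 12 tested genes were positive and 7 negative. The median of -0.10 was -0.02 without sham 1, -0.06 without sham 5, sham 6 or AVF-CKD 3, -0.05 without AVF-CKD 1, -0.03 without AVF-CKD 2 and -0.16 without AVF-CKD 5. Spp1, which encodes osteopontin, an inhibitor of mineral growth that macrophages make, ranged from 299 to 1727 CPM in AVF-CKD (median 661) and from 133 to 460 CPM in sham (median 397). For Spp1 5 of 6 fistula libraries were above every sham library, and the log2 fold change was 1.17 ± 0.38 (edgeR adjusted p = 0.422, DESeq2 adjusted p = 0.0998). Vkorc1, the vitamin K recycling enzyme on which the activity of matrix Gla protein depends, averaged 95.96 CPM ± 4.42 in AVF-CKD and 115 CPM ± 21.7 in sham (log2 fold change -0.27 ± 0.11, edgeR adjusted p = 0.496).

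In the phosphate and pyrophosphate list 4 of 12 tested genes were positive and 8 negative (median -0.09, and -0.05 without sham 5). Its most abundant gene, Anxa5, encodes a calcium-binding annexin of matrix vesicles and averaged 629 CPM ± 39.9 in AVF-CKD and 698 CPM ± 29.1 in sham (log2 fold change -0.15 ± 0.07, edgeR adjusted p = 0.542). The transcription factor list had 6 positive and 8 negative of 14 (median -0.10, and 0.0035 with the stricter filter of 1 CPM in 6 libraries). Without sham 4 there were 7 positive and 7 negative with a median of -0.01, and without sham 1 or 6 or AVF-CKD 3 or 4 the median lay between -0.07 and -0.06. Atf4, the most abundant there, averaged 141 CPM in AVF-CKD and 144 CPM in sham (edgeR adjusted p = 0.928). Runx3, a relative of Runx2 prominent in lymphocytes, averaged 9.34 CPM ± 1.35 in AVF-CKD and 7.17 CPM ± 1.87 in sham (log2 fold change 0.38 ± 0.17, edgeR adjusted p = 0.513), and Twist1 20.8 CPM ± 2.65 in AVF-CKD and 23.6 CPM ± 1.55 in sham (-0.18 ± 0.09, edgeR adjusted p = 0.552).

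In the cartilage matrix list 16 of 18 tested genes were negative, with a median of -0.19, and the median was negative in all alternatives run. It was -0.10 without sham 1, -0.12 without AVF-CKD 2, -0.08 without AVF-CKD 3, -0.42 without AVF-CKD 5 and -0.29 without sham 2. The count was 12 negative and 6 positive without sham 1, sham 5 or AVF-CKD 2, and 14 negative and 4 positive without AVF-CKD 1 or 4. None of the 18 was called by edgeR, and 1 had an unadjusted p below 0.05. That gene was Prg4, which encodes lubricin, the lubricant of joint surfaces, and it was higher in AVF-CKD. It ranged from 37.5 to 71.7 CPM in AVF-CKD (median 44.0) and from 18.0 to 43.4 CPM in sham (median 23.4), with 4 fistula libraries above every sham library. In Prg4 the log2 fold change was 0.88 ± 0.22 (edgeR adjusted p = 0.390, DESeq2 adjusted p = 0.0298, limma voom adjusted p = 0.266). Cilp, the most abundant of the list, averaged 253 CPM ± 107 in AVF-CKD and 349 CPM ± 73.1 in sham (log2 fold change -0.46 ± 0.25, edgeR adjusted p = 0.590). Genes that define true cartilage were scarce. The collagen II gene Col2a1 ranged from 0.465 to 2.65 CPM in AVF-CKD (mean 1.21 ± 0.806) and from 0.288 to 7.42 CPM in sham (mean 1.66 ± 2.83). Its log2 fold change was -0.45 with all libraries and 1.24 without sham 5 (edgeR adjusted p = 0.892 and 0.362), so no direction is given. The 11 chondrocyte markers together ranged from 8.84 to 15.2 CPM in AVF-CKD and from 9.80 to 21.0 CPM in sham. Of these 11 markers 7 were tested, and none was at 0 in all libraries.

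Bone cell genes had very low levels. The 8 osteoblast markers summed to 1.32 to 2.99 CPM in AVF-CKD and 1.86 to 4.27 CPM in sham, and 3 of the 8 were tested. Sp7, the bone transcription factor that acts after Runx2, averaged 0.259 CPM in AVF-CKD and 0.326 CPM in sham, and the osteocalcin gene Bglap 0.0570 CPM in AVF-CKD and 0.0600 CPM in sham, below the level tested. Col1a2, a collagen I gene and the most abundant of the bone matrix list, averaged 11460 CPM ± 3154 in AVF-CKD and 10950 CPM ± 2196 in sham (edgeR adjusted p = 0.944). Among 8 tested bone matrix genes 4 were positive and 4 negative. Their median of 0.02 lay between -0.08 and 0.07 when single libraries were left out and was -0.13 with no filter on low counts, so it has no steady sign. Omd, a small proteoglycan gene, averaged 6.14 CPM in AVF-CKD and 7.54 CPM in sham (edgeR adjusted p = 0.805).

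For BMP ligands and antagonists 4 of 17 genes were positive and 13 negative (median -0.09). The median was -0.05 without AVF-CKD 2, with 6 positive and 11 negative, -0.16 without sham 2, -0.14 without AVF-CKD 6 and -0.17 without AVF-CKD 5, and 6 were positive as well without sham 4 or 5 or AVF-CKD 1 or 3. Bmp4, a bone morphogenetic protein gene, averaged 19.0 CPM ± 4.20 in AVF-CKD and 26.1 CPM ± 7.74 in sham (log2 fold change -0.46 ± 0.19, edgeR adjusted p = 0.502). Gdf10, the most abundant gene of the list, averaged 212 CPM in AVF-CKD and 219 CPM in sham (edgeR adjusted p = 0.977). In the RANK and osteoclast list 8 of 10 tested genes were positive (median 0.15, and 0.11 to 0.28 when single libraries were left out, with 0.22 to 0.28 without sham 2, 3, 5 or 6 or AVF-CKD 2). Ctsk, the collagen-cutting cathepsin of osteoclasts, averaged 275 CPM in AVF-CKD and 301 CPM in sham (edgeR adjusted p = 0.836). Nfatc1, the transcription factor of osteoclast formation, averaged 61.2 CPM ± 6.78 in AVF-CKD and 52.2 CPM ± 6.80 in sham (log2 fold change 0.23 ± 0.10, edgeR adjusted p = 0.503), and Ocstamp, a cell fusion gene, 2.19 CPM ± 0.962 in AVF-CKD and 1.38 CPM ± 0.565 in sham (0.67 ± 0.31, edgeR adjusted p = 0.527). Macrophages express several of these genes too, and the part of macrophage RNA in them was not tested.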

How the data were processed

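The deposited table gave, per gene and library, a read count and an RPKM value. The counts deposited by the authors were whole numbers and were analysed as deposited. The RPKM values were computed by the authors from the length in the table and a library total, as the values show, which exceeded the summed counts 1.15-fold to 1.19-fold. GRCm38, TopHat2 2.1.0, featureCounts and edgeR are named by the submitters' processing notes, with no roles. The sources used here give no annotation release, strand setting or filter. Per the labels' protocols the libraries were made with a TruSeq RNA kit of version 2, which does not mark strand.

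Counts were filtered with filterByExpr, scaled by TMM, and the quasi-likelihood test of edgeR 4.0.16 (R 4.3.3) was run on group alone. Adjustment was by Benjamini-Hochberg over all 18965 genes, and a p-value so adjusted was called below 0.05. CPM were taken on scaled sizes, with a prior count of 2 for log2 CPM. Fold changes and their errors come from the fit. Correlations used 100000 permutations and marker sums all 924 assignments of libraries. Alternatives were RLE or total-count scaling, no filter or 1 CPM in 6 libraries, a block on the title number, a term for title numbers 1 to 3 against 4 to 6, DESeq2 1.42.0, limma voom with a weight per library (3.58.1), and leaving out each library. All 66 pairs of libraries differed beyond counting noise, with chi-square over its degrees of freedom at 47.6 or more. Exon overlaps and the length of Mgp come from GENCODE M21 and promoter sequences from RefSeq (GRCm38.p6).

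The members and lists were chosen with earlier results of these data known. Genes were named by a fixed rule: the 10 members, in each list the most abundant gene and the 2 with the smallest p, for each member the 2 genes most like it over the 12 libraries, and the most abundant gene of the marker lists used. A gene that the rule names is not reported here. Pecam1, Acta2, Tnmd, Tnfsf11, Col2a1, Col10a1, Col11a1, Sp7 and Bglap were named as markers or after their values were seen. The fit was tested on simulated counts (4.38% of its calls were false).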

Additional observations from a re-analysis of the deposited data

Results flagged for a closer look

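In 4 of the 20 groups of 6 values (10 genes in each group of libraries) a library stood far from the rest, its gap to the next value being more than 0.625 of the group's range. Chance gives about 1 in 20 for independent and normally spread values. These CPM were not logged, every flagged value was a high one, and the genes share libraries. The share over all tested genes was not taken, so no excess in these genes is shown. Enpp1 was at 98.2 CPM in AVF-CKD 6, against 54.9 to 62.6 CPM in the other AVF-CKD libraries. Enpp1 was also at 114 CPM in sham 5, against 58.6 to 73.7 CPM in the other sham libraries. Alpl was at 1.495 CPM in AVF-CKD 6, against 1.12 to 1.26 CPM in the other AVF-CKD libraries. Its 77 counts in AVF-CKD 6 have an exact Poisson 95% interval of 60.8 to 96.2. That interval overlaps the 49.3 to 81.7 of the 64 counts in AVF-CKD 1. Comp was at 193 CPM in sham 1, against 39.2 to 86.9 CPM in the other sham libraries.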

How the results depend on the processing

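None of the 10 genes was called under any of the 20 alternatives, and their lowest adjusted p was 0.368, for Alpl with a term for title numbers 1 to 3 against 4 to 6. Over all genes edgeR called 0 higher and 0 lower, while DESeq2 called 64 higher and 38 lower, and leaving out single libraries gave 0 to 1 higher (1 without AVF-CKD 3) and 0 lower. The cause of the difference between the tools was not tested. Signs turned when single libraries were left out for 4 genes, whose log2 fold changes then ran from -0.10 to 0.45 for Tnfrsf11b, from -0.21 to 0.025 for Slc20a1, from -0.28 to 0.072 for Acan and from -0.31 to 0.36 for Comp. The other 6 kept their sign in every alternative that could test them. Msx2 had no value with the filter of 1 CPM in 6 libraries, which removed it. With the replicate block on title numbers, 0 genes were called higher and 0 lower, and the log2 fold change of Alpl was -0.38 (edgeR adjusted p = 0.481). The block changed no call. Deviations of same-numbered libraries correlated from -0.11 to 0.28, and 3 of 12 libraries correlated best with their own number. With a term for title numbers 1 to 3 against 4 to 6, 2529 genes had an unadjusted edgeR p below 0.05, against 1772 without it. These values do not settle whether the numbers mark pairs or batches. Depth limits Msx2 and Alpl most, at 8 to 31 and 46 to 128 counts per library.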

Other observations

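For each member the 2 genes whose log2 CPM followed it most closely over the 12 libraries were picked, as the highest Pearson r among all tested genes, so the values are descriptions without a test. Libraries share scaling and tissue makeup. For Comp they were Clip3 (r = 0.95, Spearman rho = 0.95) and Hoxa3 (r = 0.95, rho = 0.94). For Enpp1 they were Enah, which encodes an actin regulator (r = 0.95, rho = 0.87), and Tnc, which encodes the matrix protein tenascin C (r = 0.93, rho = 0.72). For Mgp they were Sec14l2 (r = 0.95, rho = 0.92) and Fam217a (r = 0.94, rho = 0.87). For Runx2 they were F2rl1, a protease-activated receptor gene (r = 0.92, rho = 0.88), and Cad, which encodes an enzyme of pyrimidine synthesis (r = 0.91, rho = 0.81). For Tnfrsf11b they were Creb1 (r = 0.93, rho = 0.86) and Ankrd34a (r = 0.93, rho = 0.85). For Acan they were Sytl4 (r = 0.94, rho = 0.90) and Zfp334 (r = 0.92, rho = 0.90). Alpl, Slc20a1, Sox9 and Msx2 had less close companions, with r from 0.85 to 0.89. None of the 10 members was among the 2 genes most like another member.

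Within AVF-CKD the coefficient of variation ran from 10.5% for Slc20a1 to 61.0% for Comp, and within sham from 15.3% for Sox9 to 65.8% for Comp. Alpl had 10.6% in AVF-CKD and 26.8% in sham, and Acan 49.1% in AVF-CKD and 25.8% in sham. Differences in spread were not tested.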
